A study of Mus musculus with 5 samples.

Results

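The genes described here encode the subunits of protein phosphatase 6 (PP6): the catalytic subunit Ppp6c, the SAPS-domain regulatory subunits Ppp6r1, Ppp6r2 and Ppp6r3, and the ankyrin-repeat regulatory subunits Ankrd28, Ankrd44 and Ankrd52. They were taken by gene symbol from the gene list of the count matrices, which holds 31053 genes, and all 7 were found there once. PP6 is a serine/threonine phosphatase of the PP2A-like family. Its catalytic subunit binds a SAPS-domain subunit, which in turn binds an ankyrin-repeat subunit, and these partners direct the enzyme to its substrates, among them Aurora A kinase and proteins of NF-κB signalling. Loss of Ppp6c in keratinocytes of the mouse epidermis is known to give psoriasis-like skin.

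Single-cell RNA was counted in 5 mouse skin libraries, 1 library for each of 5 groups, all of the C57BL/6 strain. The groups were whole lesional skin of untreated K5. Pp6fl/fl mice aged 18 weeks, epidermis, free of lesions, of untreated K5. Pp6fl/fl mice aged 10 weeks, dermis of 10-week-old wild-type mice given imiquimod, and epidermis and dermis of untreated 10-week-old wild-type mice. They are called lesional skin, non-lesional epidermis, imiquimod dermis, untreated epidermis and untreated dermis below. Imiquimod, a Toll-like receptor agonist used to induce psoriasis-like inflammation, was applied to the ear on 5 days in a row. The genotype is written as floxed Pp6 alleles with a K5 driver, keratin 5 being a keratin of basal keratinocytes. The sources used here give neither the recombinase nor the part of the gene that is removed. They also give no number of mice per library, and a body site for the imiquimod mice only. In the lesional skin the lesion, the age and the tissue layer changed together against every other library. Against the wild-type libraries the genotype changed too, and against imiquimod dermis the treatment as well. None of these can be told apart.

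With 1 library a group there is no replicate check of any difference between groups, and no test was run. After filtering, 11561 cells of 13288 barcodes were kept: 2565 from lesional skin, 2805 from non-lesional epidermis, 4774 from imiquimod dermis, 898 from untreated epidermis and 519 from untreated dermis. Their median depth lay between 3407.5 UMIs a cell (untreated epidermis) and 8214 UMIs a cell (lesional skin), a UMI (unique molecular identifier) standing for 1 captured transcript molecule. Cells were grouped into classes by marker genes and named "-like", and 12 classes had at least 20 cells in some library. A level is the number of UMIs of the gene per 1000000 UMIs of all genes, summed over the class within 1 library (CPM), with its exact Poisson 95% interval in parentheses. The counts come from the 3′ end of transcripts and are not divided by length, so levels of different genes are not ranked against each other. A ratio of 2 levels carries an exact binomial 95% interval. It was called higher or lower by size alone, where that interval lay wholly beyond 1.5-fold, and only for a gene with at least 10 UMIs over both sums and at least 10 CPM in either. These intervals cover counting error only. A gene under 10 CPM in one of the sums passed that filter through the other, and could then be called in 1 direction only.

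The lesional library stood apart from the other 4. Malat1, a nuclear RNA, took 1.93% of its UMIs, against 0.787% to 1.51% in the other libraries, and Neat1, another nuclear RNA, stood at 637 CPM against 141 to 403 CPM. These values mix cell classes. In keratinocyte-like cells Malat1 had 8142.5 CPM in lesional skin, 12919 CPM in non-lesional epidermis and 5186 CPM in untreated epidermis. In melanocyte-like cells it had 10266 CPM in lesional skin and 31654 CPM in non-lesional epidermis. In every other class comparison it was higher in lesional skin. In the 17 class comparisons with the lesional library on top, the log2 ratio of a gene grew with its longest annotated transcript, at Spearman correlations across genes from 0.194 to 0.603. In the other 5 the correlation lay between −0.326 and 0.127. Longest annotated transcripts of the 7 subunit genes run from 3297 bases (Ppp6r2) to 6712 bases (Ankrd28), and 68.4% to 93.7% of annotated genes are shorter. The lesional library shared no cell barcode with any other, and no pair of the others shared more than 0.911% of the smaller one's barcodes.

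The promoter windows of 4 subunit genes are shown because their transcripts carry the main contrasts below. As counted, Ppp6c had no call between classes or libraries. Ppp6r1 and Ppp6r3 were called between libraries, always with lesional skin on top. Ppp6r1 was also called between cell classes, and Ankrd44 between cell classes and between libraries. No Ppp6r3 call was left after a scaling by transcript length described below. Each window is the 250 bases before the RefSeq start of the gene in GRCm38.p6, 5′ to 3′ on the gene's own strand, with matches to searched motifs in capitals. Ppp6c lies on the minus strand at chr2:39226350-39226599, Ppp6r1 on the minus strand at chr7:4658951-4659200, Ppp6r3 on the minus strand at chr19:3575750-3575999 and Ankrd44 on the minus strand at chr1:54926388-54926637.
Ppp6c: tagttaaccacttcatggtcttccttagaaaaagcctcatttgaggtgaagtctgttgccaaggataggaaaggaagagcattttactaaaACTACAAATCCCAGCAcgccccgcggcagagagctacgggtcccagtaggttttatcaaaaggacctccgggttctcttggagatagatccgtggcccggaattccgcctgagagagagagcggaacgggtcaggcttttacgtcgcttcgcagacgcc
Ppp6r1: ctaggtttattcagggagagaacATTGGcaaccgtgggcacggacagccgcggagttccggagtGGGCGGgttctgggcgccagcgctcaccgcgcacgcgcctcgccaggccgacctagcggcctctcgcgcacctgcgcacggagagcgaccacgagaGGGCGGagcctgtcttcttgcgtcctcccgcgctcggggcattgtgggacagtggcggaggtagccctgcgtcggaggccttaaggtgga
Ppp6r3: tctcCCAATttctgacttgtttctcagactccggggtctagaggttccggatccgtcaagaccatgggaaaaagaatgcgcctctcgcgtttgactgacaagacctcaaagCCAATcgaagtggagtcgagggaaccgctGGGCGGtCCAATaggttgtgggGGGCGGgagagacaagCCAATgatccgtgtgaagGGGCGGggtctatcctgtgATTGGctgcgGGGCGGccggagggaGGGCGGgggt
Ankrd44: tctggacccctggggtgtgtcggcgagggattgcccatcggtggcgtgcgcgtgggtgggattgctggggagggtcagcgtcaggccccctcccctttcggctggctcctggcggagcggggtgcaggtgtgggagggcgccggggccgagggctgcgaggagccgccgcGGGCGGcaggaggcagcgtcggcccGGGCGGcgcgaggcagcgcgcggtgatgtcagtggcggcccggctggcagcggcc
The motifs were chosen after the sequences had been read, and both strands were searched. In Ppp6c the capitals mark a stretch like the known Znf143 motif, searched as ACTACAANTCCCAGCA, which begins 159 bases before the start. This pattern has the letters of the Ppp6c stretch itself, with any letter allowed at N, so its match in Ppp6c was certain. The pattern occurs in 0.111% of the 27025 promoter windows, and among the 7 subunit genes only in Ppp6c. That share is a description only. In the others the capitals mark the GC box GGGCGG, or CCGCCC on the other strand, and the CCAAT box, or ATTGG on the other strand. A GC box lies in 32.9% of all windows and in those of the 6 regulatory subunit genes, but not in that of Ppp6c. A CCAAT box lies in 34.5% of all windows. It was found once in Ppp6r1 and 5 times in Ppp6r3, which also holds 5 GC boxes, and no marked match overlaps another. The Ppp6c window has 51.2% G and C, near the median of 52% over all windows, against 59.2% to 82.8% in the regulatory subunit genes. These are matches of letters and were not tested for binding or use.

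Ppp6c, the catalytic subunit, whose floxed alleles define the genotype, had UMIs in keratinocyte-like cells of both K5. Pp6fl/fl libraries. It had 51.1 CPM (46.9 to 55.5) in 420 keratinocyte-like cells of lesional skin, 71.8 CPM (67.6 to 76.2) in 1554 of non-lesional epidermis and 79.8 CPM (68.4 to 92.6) in 489 of untreated epidermis. The intervals of non-lesional and untreated epidermis overlapped, and lesional skin lay below both. The ratio was 0.8998 (0.766 to 1.06) for non-lesional over untreated epidermis. It was 0.711 (0.641 to 0.788) for lesional skin over non-lesional epidermis and 0.6401 (0.539 to 0.763) for lesional skin over untreated epidermis. None of these passed the 1.5-fold rule. Counts from the 3′ end can include transcripts of a recombined allele, so without knowing which part is removed these levels check nothing about the genotype.

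The median log2 ratio of all measured genes, with 5 CPM added to each level, was 0.24 in keratinocyte-like cells of lesional skin over non-lesional epidermis. Divided by the median ratio of the same genes, taken without the added CPM, Ppp6c stood at 0.585 (0.528 to 0.648), which passes the rule as lower. In T cell and ILC-like cells (ILC, innate lymphoid cells) of the same libraries Ppp6c had 52.4 CPM in lesional skin and 93.2 CPM in non-lesional epidermis, a ratio of 0.562 (0.451 to 0.698). These cells lay in different clusters: 77, 167 and 240 of the 486 lesional cells were in clusters 3, 14 and 16, and 53 and 873 of the 942 non-lesional ones in clusters 29 and 32, so their ratios compare different cells for each subunit gene. The ratio was 0.875 (0.5603 to 1.34) in Langerhans cell-like cells and 0.644 (0.321 to 1.31) in melanocyte-like cells. In these 4 classes the level was lower in lesional skin, and in 2 of them, keratinocyte-like and T cell and ILC-like, the interval lay below 1. The ratio in T cell and ILC-like cells of non-lesional over untreated epidermis was 1.14 (0.922 to 1.41).

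Within single clusters of keratinocyte-like cells, the ratio of non-lesional over untreated epidermis ran from 0.763 to 1.14 in the 5 clusters with at least 20 cells in both, and each interval included 1. In cluster 28, which held 862 of the non-lesional cells and is led by Tgm3, Serpinb7 and Krt15, it was 0.922 (0.6996 to 1.24). In cluster 7, whose leading genes include Krt16 and Sprr1b, a keratin and a cornified-envelope gene of stressed epidermis, it was 1.14 (0.799 to 1.67). In cluster 8, led by the cell-division genes Cenpf and Top2a, it was 0.819 (0.417 to 1.84). Lesional skin over non-lesional epidermis gave 0.701 (0.5804 to 0.846) in cluster 7 and 0.762 (0.574 to 1.01) in cluster 8. Of the 489 untreated keratinocyte-like cells, 354 had under 0.5% mitochondrial UMIs, against 27 of 1554 in non-lesional epidermis, and 286 of the 489 lay in cluster 24. Without the cells under 0.5%, the ratio of non-lesional over untreated epidermis was 0.976 (0.798 to 1.204).

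**Figure D1:**
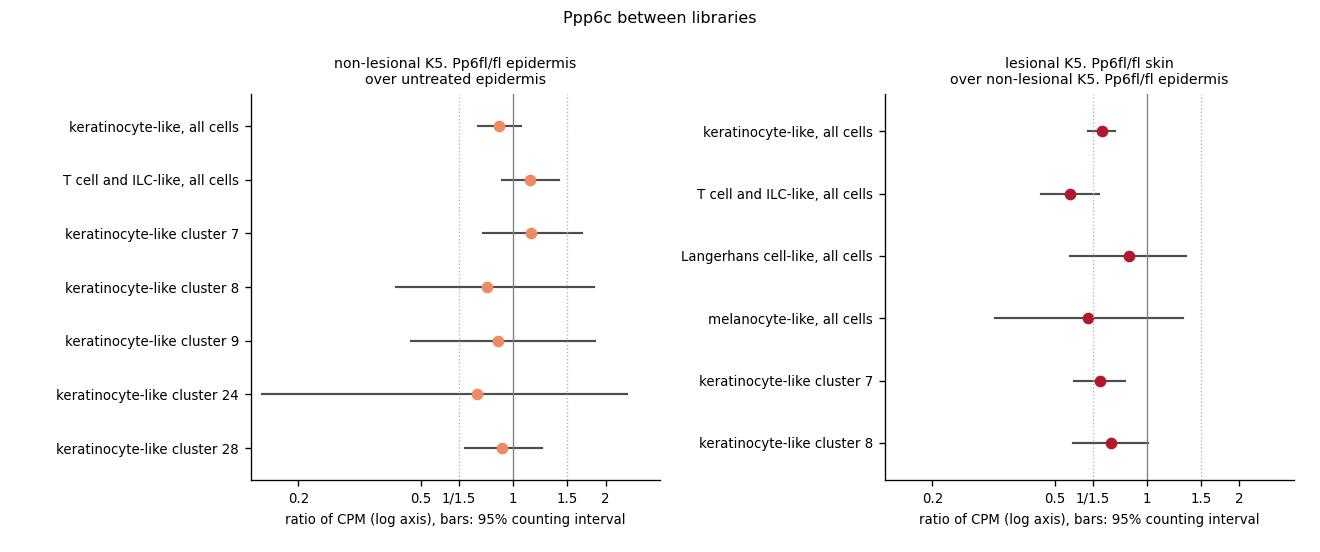
Ratio of Ppp6c CPM between libraries (log axis) in whole classes and in single keratinocyte-like clusters, for non-lesional K5. Pp6fl/fl epidermis over untreated epidermis (left) and lesional K5. Pp6fl/fl skin over non-lesional epidermis (right). Points are ratios, bars 95% counting intervals and dotted lines 1.5-fold either way. On the left every bar crosses 1, and on the right every point lies below 1.

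Seen per cell, 60.95% of the keratinocyte-like cells of lesional skin held a Ppp6c UMI, against 46.4% in non-lesional and 23.7% in untreated epidermis, at median depths of 21370, 9710.5 and 2196 UMIs. Thinned to 2000 UMIs a cell, the shares became 8.31% (5.83 to 11.4) in lesional skin, 13.98% (12.2 to 15.9) in non-lesional epidermis and 12.7% (8.9003 to 17.4) in untreated epidermis. The order of the unthinned shares followed depth and went against the CPM values, so no order is read from it. The thinned lesional share lay below the non-lesional one without overlap, and the untreated share overlapped both.

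Imiquimod dermis and untreated dermis were compared in 3 classes, with no call of Ppp6c. In macrophage and monocyte-like cells it had 49.4 CPM (46.4 to 52.5) in imiquimod dermis and 44.5 CPM (33.7 to 57.6) in untreated dermis, a ratio of 1.11 (0.8501 to 1.48). The ratio was 0.774 (0.531 to 1.16) in T cell and ILC-like cells and 0.755 (0.537 to 1.09) in dendritic cell-like cells. The macrophage and monocyte-like cells lay mostly in different clusters. Cluster 10 held 210 of the 242 untreated and 77 of the 2407 imiquimod cells. Clusters 5 and 6 held 24 and 5 of the untreated cells, and 1241 and 986 of the imiquimod ones. Of the 255 lesional ones, 133 lay in cluster 10 and 100 in cluster 6. Ratios of this class between libraries thus partly compare different cells. Over all 29 sums of a class in a library, Ppp6c ran from 21.4 CPM in neutrophil-like cells of lesional skin, on 5 UMIs, to 93.2 CPM in T cell and ILC-like cells of non-lesional epidermis, with a median of 54.5 CPM. With the sums in order of level, none of the 28 neighbouring pairs differed beyond its interval. The same held for Ppp6r1, Ppp6r2, Ppp6r3 and Ankrd52. Sums further apart did differ. T cell and ILC-like cells of non-lesional epidermis, at 93.2 CPM, had an interval of 83.1 to 104. Fibroblast-like cells of lesional skin lay below it, at 33.0 CPM (29.3 to 37.1). By the 1.5-fold rule no class differed from the other named cells of its own library in any of the 29 sums, where 4.07% to 24.8% of measured genes were called higher and 3.72% to 37.9% lower.

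**Figure D2:**
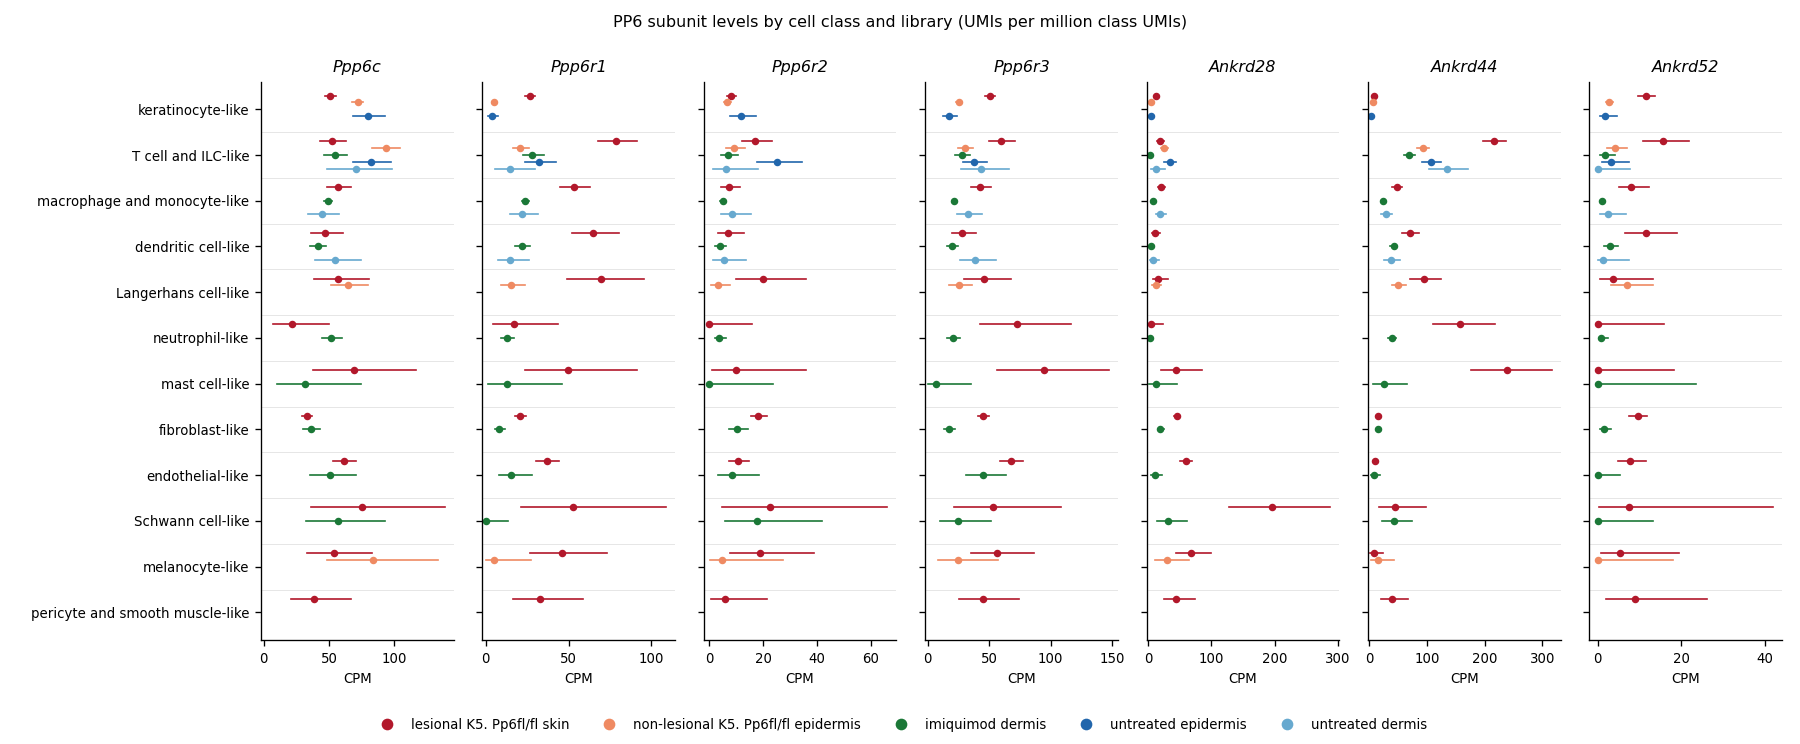
Levels of the 7 PP6 subunit genes (CPM) in 12 marker-defined cell classes, with 1 colour for each library. Points are levels and bars exact Poisson 95% intervals, and each panel has its own scale. Ppp6c runs from 21.4 to 93.2 CPM, whereas Ankrd44 runs from 3.67 CPM in keratinocyte-like cells of untreated epidermis to 238 CPM in mast cell-like cells of lesional skin.

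Ppp6r1, a SAPS-domain subunit, was low in keratinocyte-like cells outside the lesions. It had 26.7 CPM (23.7 to 29.9) in keratinocyte-like cells of lesional skin, 5.11 CPM (4.04 to 6.37) in non-lesional epidermis and 3.67 CPM (1.58 to 7.23) in untreated epidermis, on 293, 78 and 8 UMIs. Lesional skin lay above the other libraries, whose intervals overlapped each other. The ratio was 5.23 (4.06 to 6.797) for lesional skin over non-lesional epidermis, where 28.2% of all measured genes were called higher, and 7.27 (3.64 to 17.002) over untreated epidermis. In keratinocyte-like cells Ppp6r1 passed the filter on low levels through lesional skin alone. Many keratinocyte-like cells of these libraries lay in clusters of their own. Cluster 28 held 862 of the 1554 non-lesional cells and 0 lesional ones, and clusters 19 and 20, led by hair follicle genes such as Krt75, Krt25 and Krt71, held 118 and 89 of the 420 lesional cells and 0 non-lesional ones. Within shared clusters, lesional skin over non-lesional epidermis gave 3.99 (2.42 to 6.98) in cluster 7 and 7.24 (3.09 to 20.7) in cluster 8.

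T cell and ILC-like cells had 78.8 CPM (67.6 to 91.4) of Ppp6r1 in lesional skin, 20.8 CPM (16.2 to 26.3) in non-lesional epidermis, 28.1 CPM (22.3 to 34.99) in imiquimod dermis, 32.3 CPM (23.95 to 42.5) in untreated epidermis and 14.5 CPM (5.82 to 29.8) in untreated dermis. Lesional skin was the high library, and its interval overlapped none of the others. It was also the high one in macrophage and monocyte-like cells, at 53.5 CPM against 23.98 CPM in imiquimod dermis and 21.9 CPM in untreated dermis. Dendritic cell-like cells had 64.9 CPM in lesional skin, 21.7 CPM in imiquimod dermis and 14.7 CPM in untreated dermis. Langerhans cell-like cells had 69.4 CPM in lesional skin and 15.4 CPM in non-lesional epidermis, a ratio of 4.51 (2.56 to 8.18).

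In all, Ppp6r1 was called higher in 12 of the 16 measured comparisons with lesional skin on top, and the ratio was above 1 in each of the 16. Among the 12 where the other library also reached 10 CPM, 9 were called. These comparisons share the lesional library and are not separate evidence. Of all measured genes, 4.95% to 37.5% were called higher in the 17 class comparisons with lesional skin on top. Each ratio was also divided by the median ratio of genes of like transcript length (3 classes of equal size), a scaling chosen after seeing the data. Of the 16, 8 were then called and 16 still lay above 1. What part the length dependence has in the calls was not tested beyond this scaling.

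Within libraries, T cell and ILC-like cells had more Ppp6r1 than keratinocyte-like cells wherever both were present. The ratio was 2.96 (2.44 to 3.57) in lesional skin, 4.08 (2.91 to 5.71) in non-lesional epidermis and 8.795 (4.14 to 21.5) in untreated epidermis, and all 3 were called. In non-lesional and untreated epidermis Ppp6r1 passed the filter through the T cell and ILC-like cells alone, so only lesional skin could have been called either way. Of all measured genes, 22% were called higher in that direction in lesional skin, 26.3% in non-lesional epidermis and 24.8% in untreated epidermis. Fibroblast-like cells were called lower than the other named cells of their library, at 20.9 CPM against 40.6 CPM in lesional skin and 8.09 CPM against 22.4 CPM in imiquimod dermis. Lower calls covered 22.8% of measured genes there in lesional skin and 15.2% in imiquimod dermis. In imiquimod dermis Ppp6r1 passed the filter through the other named cells alone, so it could be called lower only. Schwann cell-like cells of imiquimod dermis had 0 UMIs of Ppp6r1, which allows up to 10.7 CPM by 3 counts. It was called lower than the other named cells, where 3.72% of measured genes were, and again could be called lower only.

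Ppp6r2, another SAPS-domain subunit, was sparse, with a median of 8.196 CPM over the 29 sums and a highest value of 25.2 CPM in T cell and ILC-like cells of untreated epidermis. In that class it had 17.02 CPM (12.05 to 23.4) in lesional skin, 9.35 CPM (6.35 to 13.3) in non-lesional epidermis, 7.03 CPM (4.29 to 10.9) in imiquimod dermis, 25.2 CPM (17.9 to 34.4) in untreated epidermis and 6.21 CPM (1.28 to 18.1) in untreated dermis. Non-lesional over untreated epidermis gave a ratio of 0.372 (0.224 to 0.611), called lower, on 31 and 39 UMIs. These cells lay in different clusters: cluster 32 held 873 of the 942 non-lesional cells and 8 of the 377 untreated ones, and cluster 29 held 53 and 368. In cluster 29 the ratio was 0.787 (0.0194 to 4.66), on 1 and 38 UMIs. Scaled by transcript length, the ratio of the class was 0.419 (0.253 to 0.689), which was not called. It was 1 of 6 measured subunit genes in that comparison, where 1.56% of all measured genes were called lower. Ppp6r2 passed the filter there through untreated epidermis alone, so it could be called lower only. Keratinocyte-like cells had 6.74 CPM in non-lesional epidermis and 11.9 CPM in untreated epidermis, a ratio of 0.565 (0.365 to 0.906), which was not called. Langerhans cell-like cells had 20.1 CPM in lesional skin and 3.08 CPM in non-lesional epidermis, a ratio of 6.52 (1.93 to 28.1) on 11 and 4 UMIs. Fibroblast-like cells of lesional skin had 18.2 CPM against 9.69 CPM in the other named cells, a ratio of 1.88 (1.52 to 2.32), where 19.6% of measured genes were called higher. Ppp6r2 passed the filter there through the fibroblast-like cells alone, so it could be called higher only.

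Ppp6r3, the third SAPS-domain subunit, had 50.6 CPM (46.5 to 55.02) in keratinocyte-like cells of lesional skin, 25.5 CPM (22.998 to 28.1) in non-lesional epidermis and 17.4 CPM (12.3 to 23.9) in untreated epidermis. Lesional skin was the high library and overlapped neither of the others. The ratio was 1.99 (1.74 to 2.27) over non-lesional and 2.905 (2.09 to 4.15) over untreated epidermis. Over non-lesional epidermis it was 2.02 (1.54 to 2.68) within cluster 7 and 1.78 (1.21 to 2.65), not called, within cluster 8. Fibroblast-like cells had 45.3 CPM in lesional skin and 17.02 CPM in imiquimod dermis, a ratio of 2.66 (2.03 to 3.55). These cells lay mostly in different clusters. Cluster 0 held 556 of the 677 lesional and 18 of the 350 imiquimod cells, and cluster 2 held 5 and 320. Fibroblast-like ratios between these libraries thus largely compare different cells, for each subunit gene. Macrophage and monocyte-like cells had 42.8 CPM in lesional skin, 21.5 CPM in imiquimod dermis and 32.8 CPM in untreated dermis. There lesional skin was called against imiquimod dermis, at 1.99 (1.5997 to 2.45), and not against untreated dermis, at 1.304 (0.907 to 1.91). Non-lesional over untreated epidermis gave 1.46 (1.05 to 2.096) in keratinocyte-like cells, which was not called.

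Ppp6r3 was called higher in 8 of 17 measured comparisons with lesional skin on top, where 4.95% to 37.5% of all measured genes were. Among the 16 where the other library also reached 10 CPM, 7 were called. After scaling by transcript length 0 of the 17 were called, and 10 lay above 1. Its longest annotated transcript has 5112 bases. No class was called against the other named cells of its library for Ppp6r3 in any of the 29 sums, and none of the 28 neighbouring pairs of ordered levels differed beyond its interval. Sums further apart did differ, such as the keratinocyte-like cells of lesional skin and untreated epidermis given above.

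As a share of the UMIs of the SAPS-domain genes, Ppp6r1 took 31.2% (28.2 to 34.3) in keratinocyte-like cells of lesional skin, 13.7% (10.97 to 16.8) in non-lesional epidermis and 11.1% (4.92 to 20.7) in untreated epidermis. Among T cell and ILC-like cells its share was 50.7% (45.3 to 56.1) in lesional skin, 34.5% (27.9 to 41.5) in non-lesional epidermis and 34.01% (26.4 to 42.3) in untreated epidermis. In each of these libraries the share was larger in T cell and ILC-like cells than in keratinocyte-like cells, with no overlap of the intervals. Dendritic cell-like cells had 64.9% (56.1 to 73.02) in lesional skin and 47.8% (40.9 to 54.8) in imiquimod dermis. These are shares of captured UMIs, not of molecules per transcript length.

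**Figure D3:**
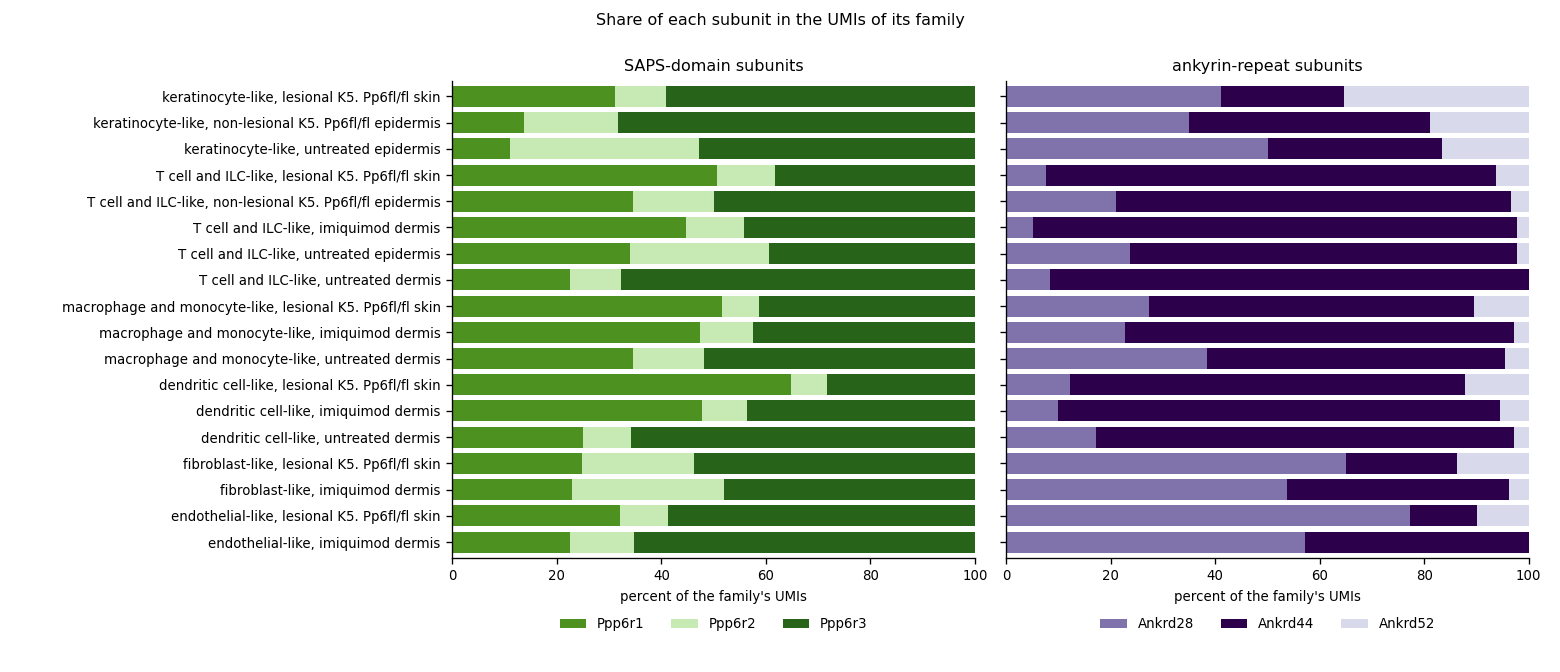
Percent of the UMIs of the SAPS-domain genes (left) and of the ankyrin-repeat genes (right) that came from each gene, in 6 cell classes and their libraries. Each bar adds up to 100%. Ppp6r1 takes 13.7% of SAPS UMIs in keratinocyte-like cells of non-lesional epidermis and 34.5% in its T cell and ILC-like cells, and Ankrd44 takes 46.2% and 75.5% of ankyrin UMIs.

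Ankrd44, an ankyrin-repeat subunit, was high in T cell and ILC-like cells and low in keratinocyte-like cells. The T cell and ILC-like cells had 216 CPM (197 to 236) in lesional skin, 92.9 CPM (82.8 to 104) in non-lesional epidermis, 69.2 CPM (59.9 to 79.6) in imiquimod dermis, 106 CPM (90.9 to 124) in untreated epidermis and 134 CPM (104 to 171) in untreated dermis. In keratinocyte-like cells it had 7.65 CPM (6.102 to 9.47) in lesional skin, 6.74 CPM (5.504 to 8.18) in non-lesional epidermis and 3.67 CPM (1.58 to 7.23) in untreated epidermis. Every value of the T cell and ILC-like class lay above every value of the keratinocyte-like class, with no overlap.

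The ratio of T cell and ILC-like cells over keratinocyte-like cells was 28.2 (22.3 to 36.03) in lesional skin, 13.8 (10.99 to 17.4) in non-lesional epidermis and 29.02 (14.4 to 68.4) in untreated epidermis. Ankrd44 was under 10 CPM in keratinocyte-like cells of all 3 libraries, so it could be called in this direction only. Ankrd44 was called higher in T cell and ILC-like cells than in the other named cells in all 5 libraries. There 15.8% of measured genes were called higher in lesional skin, 24.8% in non-lesional epidermis, 16% in imiquimod dermis, 23.8% in untreated epidermis and 12.7% in untreated dermis. Markers of each class were also counted in the other. In non-lesional epidermis the 12 T cell and ILC markers summed to 29217 CPM in T cell and ILC-like cells and to 858 CPM in keratinocyte-like cells, with 11 of the 12 detected in the keratinocyte-like cells. The 13 keratinocyte markers summed there to 10512 CPM in T cell and ILC-like cells and to 46830 CPM in keratinocyte-like cells. In lesional skin the T cell and ILC markers summed to 6004 CPM in T cell and ILC-like cells and to 72.9 CPM in keratinocyte-like cells. The keratinocyte markers summed there to 413 CPM in T cell and ILC-like cells and to 31247 CPM in keratinocyte-like cells. Their part in the Ankrd44 levels was not tested.

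Per cell, after thinning to 2000 UMIs, 31.1% (26.6 to 35.9) of the T cell and ILC-like cells of lesional skin held an Ankrd44 UMI, against 1.96% (0.848 to 3.82) of its keratinocyte-like cells. Without thinning the shares were 54.5% and 13.6%, at median depths of 4367.5 and 21370 UMIs. In non-lesional epidermis the thinned shares were 15.5% (13.03 to 18.2) and 1.22% (0.711 to 1.94), and in untreated epidermis 17.4% (13.5 to 21.9) and 1.15% (0.239 to 3.33). The order of the classes was the same in all 3 libraries.

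Other immune classes of lesional skin also had more Ankrd44 than the other named cells of that library. Mast cell-like cells had 238 CPM (176 to 316), neutrophil-like cells 158 CPM (111 to 218), Langerhans cell-like cells 94.9 CPM (70.9 to 125) and dendritic cell-like cells 70.96 CPM (57.3 to 86.9), all 4 called, where 6.51%, 8.73%, 8.75% and 9.17% of measured genes were called higher. In imiquimod dermis the mast cell-like, neutrophil-like and dendritic cell-like cells, at 25.5, 39.4 and 42.6 CPM, were not called against the other named cells. Langerhans cell-like cells of non-lesional epidermis, at 50.03 CPM (38.6 to 63.8), were called, as were 12.1% of measured genes. Fibroblast-like cells had 14.8 CPM in lesional skin and 15.6 CPM in imiquimod dermis, and endothelial-like cells had 9.93 and 8.48 CPM, with both classes called lower than the other named cells in both libraries. Among endothelial-like cells 17.6% of measured genes were called lower in lesional skin and 8.92% in imiquimod dermis. Melanocyte-like cells of lesional skin were also called lower, on 3 UMIs, where 15.6% of measured genes were. These melanocyte-like cells, at 8.07 CPM, and the endothelial-like cells of both libraries were under 10 CPM, so they could be called lower only. In order of level, 3 of 28 neighbouring pairs differed beyond their intervals. These were T cell and ILC-like cells of non-lesional epidermis above dendritic cell-like cells of lesional skin, T cell and ILC-like cells of imiquimod dermis above Langerhans cell-like cells of non-lesional epidermis, and macrophage and monocyte-like cells above fibroblast-like cells of imiquimod dermis.

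Between libraries, 4.95% to 37.5% of all measured genes were called higher in the 17 class comparisons with lesional skin on top. Ankrd44 was called higher in 6 of the 13 in which it was measured. For T cell and ILC-like cells the ratio was 2.32 (2.01 to 2.69) over non-lesional epidermis, 2.03 (1.696 to 2.43) over untreated epidermis and 3.12 (2.64 to 3.7) over imiquimod dermis. Over imiquimod dermis it was 4.01 (2.71 to 5.798) in neutrophil-like cells and 9.33 (3.42 to 35.6) in mast cell-like cells, the last on 48 and 4 UMIs at median depths of 1204 and 849 UMIs a cell. Scaled by transcript length, none of the 3 ratios in T cell and ILC-like cells was called, at 1.6005 (1.38 to 1.85) over non-lesional epidermis, 1.4006 (1.17 to 1.68) over untreated epidermis and 1.299 (1.0984 to 1.54) over imiquimod dermis. Most lesional T cell and ILC-like cells lay in other clusters than most epidermal ones and in the same 3 as most of those of imiquimod dermis. Within these, lesional skin over imiquimod dermis, not scaled, gave 2.6001 (1.64 to 4.29) in cluster 3, 4.13 (3.199 to 5.37) in cluster 14 and 2.42 (1.85 to 3.19) in cluster 16. Under the scaling by length 2 of the 13 comparisons were called higher and 1 lower. Neutrophil-like and mast cell-like cells were the ones still called higher, at 2.37 (1.601 to 3.43) and 5.33 (1.95 to 20.4). Under that scaling fibroblast-like cells were called lower, at 0.383 (0.278 to 0.534), and macrophage and monocyte-like cells stood at 0.996 (0.812 to 1.21). The fibroblast-like cells of lesional skin and imiquimod dermis lay mostly in different clusters, so their ratio largely compares different cells. Imiquimod over untreated dermis gave 0.515 (0.387 to 0.692) in T cell and ILC-like cells, which was not called.

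Ankrd28, an ankyrin-repeat subunit known to bind the SAPS-domain subunits, was highest in Schwann cell-like cells of lesional skin, at 196 CPM (128 to 287) on 26 UMIs of 29 cells. The next sum, melanocyte-like cells of lesional skin at 67.2 CPM, lay below it without overlap. Schwann cell-like cells of imiquimod dermis had 32.2 CPM (14.7 to 61.1), a ratio of 6.09 (2.77 to 14.8) for lesional skin over imiquimod dermis. Scaled by transcript length it was 2.89 (1.31 to 7.01), which was not called. Of the 16 measured comparisons of Ankrd28 with lesional skin on top, 6 were called higher as counted, and 0 higher and 1 lower after that scaling. Among the 10 where the other library also reached 10 CPM, 3 were called higher as counted. In the rest Ankrd28 passed the filter through lesional skin alone, so it could be called higher only. As counted, 4.95% to 37.5% of all measured genes were called higher in the 17 class comparisons with lesional skin on top. In lesional skin and in imiquimod dermis Schwann cell-like cells were called higher than the other named cells, which had 29.3 CPM and 7.75 CPM. There 10.3% and 17.4% of measured genes were called higher. In imiquimod dermis Ankrd28 passed the filter through the Schwann cell-like cells alone, so it could be called higher only. The 6 Schwann cell markers summed to 8226 CPM in these cells of lesional skin and to 2345 CPM in those of imiquimod dermis, and their part in the difference between the libraries was not tested.

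Fibroblast-like cells had 45.3 CPM (40.96 to 50.02) of Ankrd28 in lesional skin and 19.8 CPM (15.5 to 24.99) in imiquimod dermis, against 23.95 CPM in the other named cells of lesional skin and 6.64 CPM in those of imiquimod dermis. They were called higher in both libraries, where 19.6% of measured genes were. In imiquimod dermis Ankrd28 passed the filter through the fibroblast-like cells alone, so it could be called higher only. The fibroblast-like cells of these libraries lay mostly in different clusters. Endothelial-like cells had 59.6 CPM (51.4 to 68.8) in lesional skin and 11.3 CPM (4.88 to 22.3) in imiquimod dermis, and were called higher than the other named cells in lesional skin, where 15.4% of measured genes were. Dendritic cell-like cells of lesional skin were called lower, as were 27.1% of measured genes. Keratinocyte-like cells were called lower than the other named cells in all 3 libraries, at 13.3 CPM in lesional skin, 5.11 CPM in non-lesional epidermis and 5.504 CPM in untreated epidermis. There 29.5%, 24.7% and 25.2% of measured genes were called lower. In non-lesional and untreated epidermis Ankrd28 passed the filter through the other named cells alone, so it could be called lower only.

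In T cell and ILC-like cells, Ankrd28 had 18.8 CPM (13.6 to 25.4) in lesional skin, 25.9 CPM (20.8 to 32.04) in non-lesional epidermis, 3.87 CPM (1.93 to 6.92) in imiquimod dermis, 34.2 CPM (25.6 to 44.7) in untreated epidermis and 12.4 CPM (4.56 to 27.02) in untreated dermis. The epidermal libraries held the highest values of the 5, and imiquimod dermis overlapped neither of them. Those cells sat in different clusters. Clusters 29 and 32, led by gamma delta T cell genes such as Trdc and Tcrg-C1, held most of the epidermal ones, and clusters 3, 14 and 16 held most of the others.

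In macrophage and monocyte-like cells Ankrd28 had 7.34 CPM (6.22 to 8.597) in imiquimod dermis and 19.5 CPM (12.6 to 28.8) in untreated dermis, a ratio of 0.376 (0.245 to 0.599). This was the only call of a subunit gene in the 3 classes compared between these libraries. It was 1 of 5 measured subunit genes in the class, and 19.1% of all measured genes were called lower. Ankrd28 passed the filter there through untreated dermis alone, so it could be called lower only. Within cluster 10, which held 210 of the 242 untreated macrophage and monocyte-like cells, the ratio was 0.242 (0.0719 to 0.651), on 5 and 23 UMIs. Divided by the median ratio of all measured genes it was 0.468 (0.306 to 0.746), which is not called. Across genes the log2 ratio fell with transcript length there, at a Spearman correlation of −0.326. Scaled by transcript length, the Ankrd28 ratio was 0.589 (0.384 to 0.939), also not called.

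Ankrd52, the third ankyrin-repeat subunit, was the sparsest, with a median of 2.75 CPM over the 29 sums and 440 UMIs in all kept cells. It had 11.5 CPM (9.56 to 13.7) in keratinocyte-like cells of lesional skin, 2.75 CPM (1.98 to 3.72) in non-lesional epidermis and 1.83 CPM (0.4999 to 4.697) in untreated epidermis. T cell and ILC-like cells had 15.7 CPM in lesional skin, 4.22 CPM in non-lesional epidermis, 1.76 CPM in imiquimod dermis, 3.23 CPM in untreated epidermis and 0 UMIs in untreated dermis, against which lesional skin was at least 2.53-fold higher, taking 3 counts as the limit. Lesional skin was the high library in both classes. The ratio in keratinocyte-like cells was 4.17 (2.92 to 6.07) over non-lesional and 6.25 (2.38 to 23.3) over untreated epidermis. Ankrd52 was called in 7 of 8 measured comparisons with lesional skin on top. Over the 17 class comparisons of this kind, 4.95% to 37.5% of all measured genes were called higher. In all 8 Ankrd52 passed the filter through lesional skin alone, so it had to be higher there, and the count is no support. Over non-lesional epidermis the ratio was 4.43 (1.66 to 14.9) within keratinocyte-like cluster 8, and in cluster 7 neither library reached 10 CPM. Scaled by transcript length, 1 of the 8 was called. Nabp2 and Slc39a5 overlap Ankrd52 on the other strand at its locus on chromosome 10 (128377115 to 128408704, GRCm38), and the sources used here do not say how the counting treated strand.

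Counted over the subunit genes for lesional skin over non-lesional epidermis, the keratinocyte-like cells gave 4 higher and 0 lower of 5 measured subunit genes, against 28.2% higher and 10.7% lower among all measured genes. The T cell and ILC-like cells gave 4 higher and 0 lower of 7, against 17.8% higher and 19.3% lower. The Langerhans cell-like cells gave 2 higher and 0 lower of 6, against 8.89% higher and 5.22% lower. No subunit gene was called lower in these 3 classes. The melanocyte-like cells gave 0 higher and 0 lower of 4, against 4.95% higher and 4.75% lower. For lesional skin over untreated epidermis, the keratinocyte-like cells gave 3 higher and 0 lower of 6, against 21.9% higher and 9.66% lower. The T cell and ILC-like cells gave 3 higher and 0 lower of 7, against 17.3% higher and 20.8% lower. The genes called in keratinocyte-like cells against non-lesional epidermis were Ppp6r1, Ppp6r3, Ankrd28 and Ankrd52, of which Ppp6r3 alone reached 10 CPM in both libraries.

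For lesional skin over imiquimod dermis, the T cell and ILC-like cells gave 5 higher and 0 lower of 7, against 28.2% higher and 7.14% lower. The macrophage and monocyte-like cells gave 4 higher and 0 lower of 5, against 29.6% higher and 5.55% lower. The dendritic cell-like cells gave 2 higher and 0 lower of 6, against 17.4% higher and 4.89% lower. No subunit gene was called lower in these 3 classes. The neutrophil-like cells gave 2 higher and 0 lower of 4, against 10.9% higher and 10.3% lower. The mast cell-like cells gave 2 higher and 0 lower of 5, against 6.07% higher and 7.06% lower. The fibroblast-like cells gave 3 higher and 0 lower of 6, against 37.5% higher and 9.35% lower. Nor was any called lower in the neutrophil-like, mast cell-like or fibroblast-like cells. The endothelial-like cells gave 1 higher and 0 lower of 5, against 16.8% higher and 7.33% lower. The Schwann cell-like cells gave 1 higher and 0 lower of 4, against 10.6% higher and 4.4% lower. The widest of these ratios was that of Ppp6r3 in mast cell-like cells, 14.8 (2.35 to 614), on 19 and 1 UMIs. For lesional skin over untreated dermis, the T cell and ILC-like cells gave 2 higher and 0 lower of 7, against 6.45% higher and 4.75% lower. The macrophage and monocyte-like cells gave 1 higher and 0 lower of 5, against 8.92% higher and 5.63% lower. The dendritic cell-like cells gave 1 higher and 0 lower of 6, against 8.67% higher and 4.5% lower. All of these comparisons share the lesional library. The fibroblast-like cells of lesional skin and imiquimod dermis lay mostly in different clusters.

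Among comparisons without lesional skin, for non-lesional over untreated epidermis, the keratinocyte-like cells gave 0 higher and 0 lower of 3, against 3.05% higher and 2.01% lower. The T cell and ILC-like cells gave 0 higher and 1 lower of 6, against 3.88% higher and 1.56% lower. For imiquimod over untreated dermis, the T cell and ILC-like cells gave 0 higher and 0 lower of 5, against 3.78% higher and 11.1% lower. The macrophage and monocyte-like cells gave 0 higher and 1 lower of 5, against 6.48% higher and 19.1% lower. The dendritic cell-like cells gave 0 higher and 0 lower of 4, against 6.54% higher and 9.15% lower.

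Without the lesional library, 23 measured pairs of a subunit gene and a class comparison gave 0 calls higher and 2 lower. Of all measured genes, 3.05% to 6.54% were called higher there and 1.56% to 19.1% lower. The 2 passed the filter through the untreated library alone, so they could be called lower only. With the lesional library, 95 pairs gave 40 higher and 0 lower. Of the 40, 25 lay among the 71 where the other library also reached 10 CPM. Of all measured genes, 4.95% to 37.5% were called higher with lesional skin on top and 4.4% to 20.8% lower. The median log2 ratio of all measured genes ran from −0.22 to 0.57 in comparisons with lesional skin on top. Dividing by the median ratio of these genes left 28 calls higher and gave 1 lower, that of Ppp6c, and scaling by transcript length gave 12 higher and 3 lower.

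**Figure D4:**
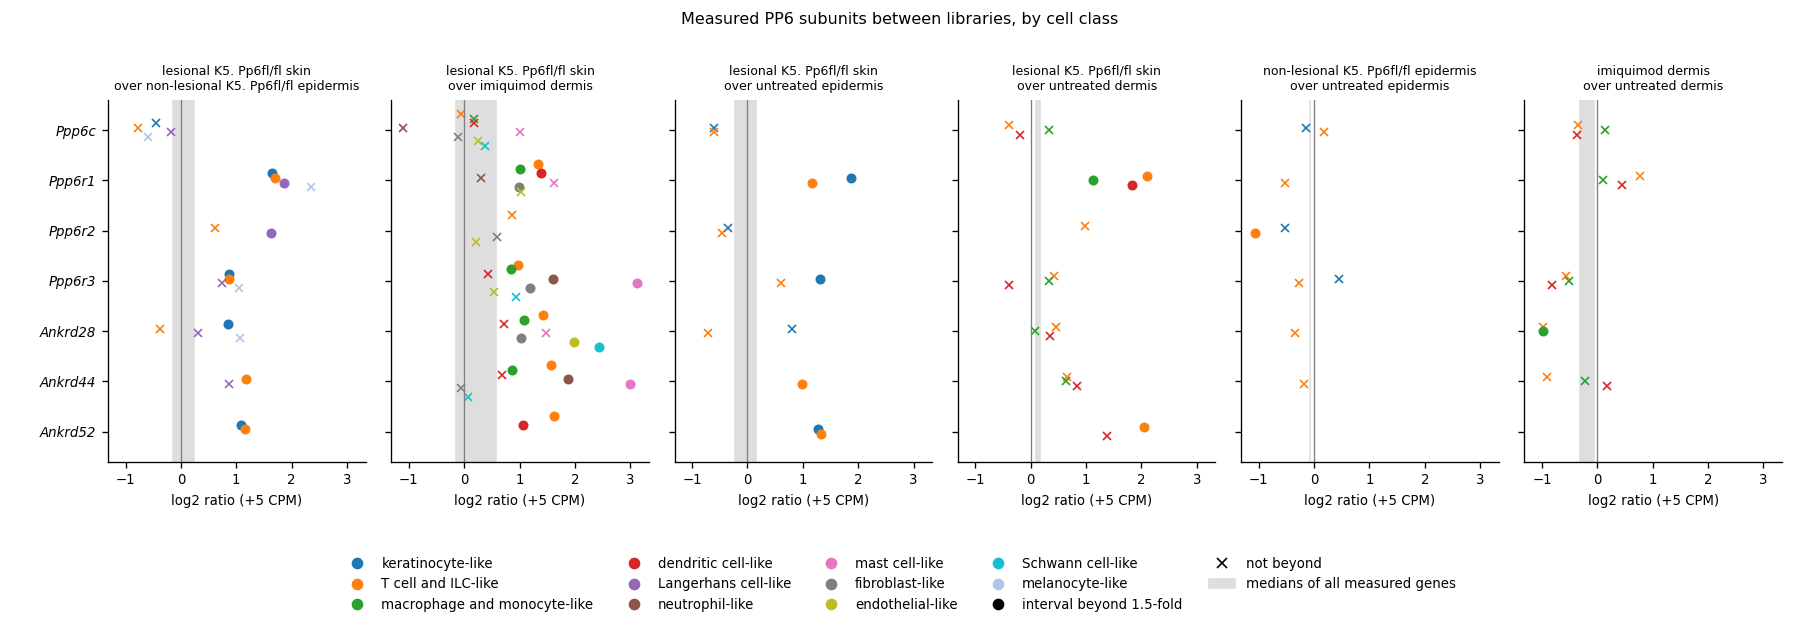
Log2 ratio of CPM between libraries, with 5 CPM added to each level, for measured PP6 subunit genes, coloured by cell class. Filled circles have intervals wholly beyond 1.5-fold, crosses do not, and grey bands span the medians of all measured genes in the classes of a panel. The 40 calls higher all lie in the 4 panels with lesional K5. Pp6fl/fl skin on top, and Ppp6c has none.

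**Figure D5:**
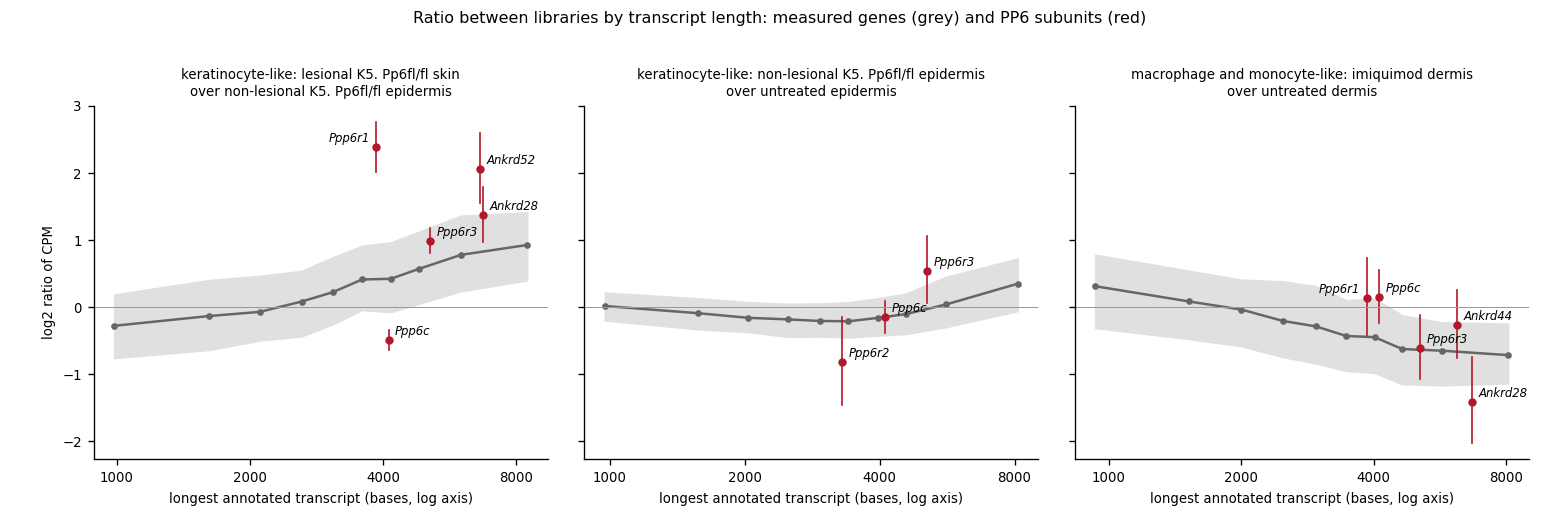
Log2 ratio of CPM between libraries against the longest annotated transcript (bases, log axis). The grey line and band are the median and quartiles of all measured genes in 10 bins of length, and red points are measured PP6 subunit genes with 95% counting intervals. In keratinocyte-like cells of lesional over non-lesional K5. Pp6fl/fl skin (left) the grey line climbs with length, Ppp6r1 lies above its band and Ppp6c below it.

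Genes whose levels followed each subunit gene most closely were taken by Pearson correlation of log2(CPM + 5) over the 26 sums with at least 50 cells, among 5676 genes. The sums share libraries, so these are descriptions. The 3 nearest to Ppp6c were Parp2 (r = 0.836), a DNA repair enzyme, Rnf181 and Timm44. Those for Ppp6r1 were Arhgap17 (0.867), Wnk1 and Ptbp3. Those for Ppp6r2 were Itfg1 (0.844), Cab39l and Mbtps1, and those for Ppp6r3 were Chd1 (0.855), Rspry1 and Rlim. Ankrd28 lay nearest to Serinc1 (0.892), Hook3 and Zbtb20, and Ankrd44 to Fam107b (0.893), Stk17b and Stk4. Ankrd52 lay nearest to Atad2b (0.809), Upf1 and Chd8. The highest correlation between subunit genes was 0.611, for Ppp6r1 with Ankrd52, and Ppp6c correlated with the other 6 at −0.112 to 0.422.

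A list of 21 related phosphatase genes and shared regulators of the PP2A and PP4 complexes was counted beside the subunit genes. It was chosen with earlier results of these data known, so its counts are descriptions. In keratinocyte-like cells of lesional skin over non-lesional epidermis, 9 of 20 measured genes were called higher and 1 lower, against 28.2% higher and 10.7% lower among all measured genes, with a median log2 ratio of 0.58 against 0.24 over all genes. The values that follow are of whole classes and are not scaled by transcript length. Many keratinocyte-like cells of these libraries lay in clusters of their own, so the ratios partly compare different cells. Ppp2ca, the PP2A catalytic subunit, had 254 CPM in lesional skin and 112 CPM in non-lesional epidermis, a ratio of 2.26 (2.13 to 2.41). Ppp2cb, its other form, had 43.4 CPM in lesional skin and 8.18 CPM in non-lesional epidermis. Igbp1, which binds free catalytic subunits of PP2A, PP4 and PP6, was the gene called lower, at 80.7 CPM in lesional skin and 141 CPM in non-lesional epidermis, a ratio of 0.574 (0.53 to 0.621). Between non-lesional and untreated epidermis 0 of 20 measured genes were called in keratinocyte-like cells and 0 of 20 in T cell and ILC-like cells. Imiquimod over untreated dermis gave 0 higher and 1 lower of 19 in macrophage and monocyte-like cells, where 6.48% of all measured genes were called higher and 19.1% lower. The 1 was Ppp2ca, at 105 CPM in imiquimod dermis and 192 CPM in untreated dermis. The macrophage and monocyte-like cells of these libraries also lay mostly in different clusters.

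Of 14 genes of reported PP6 substrates and pathways, 8 of 11 measured were called higher in keratinocyte-like cells of lesional skin over non-lesional epidermis and 0 lower, against 28.2% higher and 10.7% lower among all measured genes. The median log2 ratio of the list was 1.10 there, against 0.24 over all genes. This list was chosen with earlier results of these data known, so its counts and median are descriptions and no support. The values that follow are of whole classes and are not scaled by transcript length. Many keratinocyte-like and T cell and ILC-like cells of these libraries lay in clusters of their own, so the ratios partly compare different cells. Cebpb, a transcription factor, had 720.3 CPM in lesional skin and 215 CPM in non-lesional epidermis, a ratio of 3.35 (3.21 to 3.49). Odc1, the rate-limiting enzyme of polyamine synthesis, had 142 CPM in lesional skin and 40.1 CPM in non-lesional epidermis, a ratio of 3.55 (3.23 to 3.901). Tpx2, the activator of Aurora A, had a ratio of 2.96 (2.57 to 3.41), and Map3k7, the kinase TAK1, one of 2.81 (2.32 to 3.41). Between non-lesional and untreated epidermis 0 of 11 were called in keratinocyte-like cells. In T cell and ILC-like cells of lesional skin over non-lesional epidermis 5 of 13 were called higher and 2 lower, against 17.8% higher and 19.3% lower among all measured genes. Of these, Odc1 had 755 CPM in lesional skin and 52.5 CPM in non-lesional epidermis, and Map2k1, a MAP kinase kinase, had 38.5 CPM in lesional skin and 118 CPM in non-lesional epidermis. In macrophage and monocyte-like cells of imiquimod over untreated dermis, Arg1, the enzyme that splits arginine, was at least 11.4-fold higher, at 26.6 CPM against 0 UMIs, taking 3 counts as the limit. Arg1 passed the filter there through imiquimod dermis alone, so it could be called higher only. Odc1 had 100.05 CPM in imiquimod dermis and 241 CPM in untreated dermis, a ratio of 0.415 (0.368 to 0.469). The macrophage and monocyte-like cells of these libraries lay mostly in different clusters, so these ratios too partly compare different cells.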

How the data were processed

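The authors deposited raw UMI counts per gene and cell barcode from droplet-based 3′ single-cell RNA sequencing. CASAVA, Cell Ranger and the mm10 build are named per the submitters' processing notes, and matrix software version 3.0.2 is given per the file headers. The deposited counts sum to 3020790 to 41258087 UMIs a library. Barcodes with at least 200 genes and under 20% mitochondrial UMIs were kept, and 365 predicted doublets were removed with scanpy 1.11.5. Cells were clustered (Leiden resolution 1, 2000 variable genes, 30 principal components), and 30 of 33 clusters were named from marker lists. A per-cell gate on the same lists gave the same class for 96.0% of the 9514 cells named by both. UMIs were summed per class and library. Ratios carry exact binomial intervals. With 1 library a group, no test between groups was possible, and the intervals cover counting error only. Genes described are the 7 subunit genes, the 3 nearest to each in pattern, and genes of the lists. Members and lists were chosen with earlier results of these data known. Transcript lengths come from GENCODE M21 (30934 of 31053 gene IDs matched) and promoter windows from RefSeq. The other settings tried concerned scaling, filters, doublets, clustering, class gates, the mean over cells and depth. Protein sequences were not used here.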

Additional observations from a re-analysis of the deposited data

Results flagged for a closer look

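The Ankrd28 ratio lay on opposite sides of 1 in 2 cell classes between the same libraries. In keratinocyte-like cells it had 13.3 CPM (11.2 to 15.6) in lesional skin and 5.504 CPM (2.84 to 9.61) in untreated epidermis, a ratio of 2.42 (1.34 to 4.78). In T cell and ILC-like cells it had 18.8 CPM (13.6 to 25.4) in lesional skin and 34.2 CPM (25.6 to 44.7) in untreated epidermis, a ratio of 0.55002 (0.358 to 0.8404). Each interval excluded 1, on opposite sides, and neither lay wholly beyond 1.5-fold. Scaled by transcript length, the ratio was 1.34 (0.742 to 2.64) in keratinocyte-like cells, which includes 1, and 0.3799 (0.247 to 0.581) in T cell and ILC-like cells, which is called lower. The difference between the classes was not tested, since each group is 1 library. The T cell and ILC-like cells of the libraries lay in different clusters, and whether this bears on the ratio was not tested.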

How the results depend on the processing

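Each value was recomputed under 12 other settings, and under 1 more, the scaling by transcript length, chosen after seeing the data. Ppp6c in keratinocyte-like cells of lesional skin over non-lesional epidermis, 0.711 as reported, was 0.585 after scaling by the median ratio of measured genes, 0.580 with cells thinned to 2000 UMIs and 0.592 after scaling by length. The ratio of Ankrd44 in T cell and ILC-like over keratinocyte-like cells of non-lesional epidermis, 13.8 as reported, was 10.7 as a mean over cells and 10.2 after scaling by length. The calls higher between libraries, 40 as reported and all with lesional skin on top, were 14 with thinned cells, which hold fewer UMIs, and 12 after scaling by length. The calls lower, 2 as reported, were 1 with the stricter cell filter, 1 at Leiden resolution 0.5, 1 with thinned cells and 4 as a mean over cells. With lesional skin on top the calls lower, 0 as reported, were 1 after median scaling, 2 as a mean over cells and 3 after scaling by length. Without that library, where 2 were reported, they were 1 after median scaling, 1 with the stricter filter, 1 at resolution 0.5, 1 with thinned cells and 0 after scaling by length. After scaling by length 4 ratios that had been called higher for lesional skin over imiquimod dermis fell below 1. Ppp6r3 fell to 0.894 in T cell and ILC-like cells and to 0.994 in macrophage and monocyte-like cells. Ankrd44 fell to 0.996 in macrophage and monocyte-like cells and Ankrd28 to 0.925 in fibroblast-like cells. Ratios that had not been called fell below 1 too. Of the 95 measured with lesional skin on top, 78 lay above 1 as reported and 61 after that scaling. Apart from the fewer UMIs of thinned cells, the cause of these changes was not tested. Of 46 other called ratios, 33 were still called after median scaling, 37 as a mean over cells and 17 after scaling by length, and 16 of the 42 that thinning left measurable. Under the remaining 9 settings 42 to 46 of 46 were still called, or 38 of 38 at resolution 0.5. For Ankrd52 in T cell and ILC-like cells of lesional skin over untreated dermis no ratio could be given, since untreated dermis had 0 UMIs. No paired analysis was possible because each group is 1 library. Depth limits Ppp6r2 and Ankrd52 most, at median levels of 8.20 and 2.75 CPM.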

Other observations

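Of 33 clusters, 3 were given no class name, and the PP6 subunit genes were counted in them too. Cluster 26, led by Mcpt8, Prss34 and Cyp11a1, had 259 cells in imiquimod dermis. There Ankrd44 had 71.9 CPM (56.98 to 89.4), Ppp6c 39.5 CPM (28.7 to 53.1) and Ppp6r3 22.5 CPM (14.5 to 33.2), and Ankrd28 had 0 UMIs, which allows up to 2.69 CPM by 3 counts. Cluster 31, led by Cytl1 and including Chad and Ucma, had 29 cells in imiquimod dermis and 28 in non-lesional epidermis. It had Ankrd28 at 21.1 CPM (9.67 to 40.1) in imiquimod dermis and 30.6 CPM (11.2 to 66.5) in non-lesional epidermis, with overlapping intervals. Cluster 30, led by Fa2h, Elovl6 and Cidea, had 20 cells in non-lesional epidermis, with Ppp6c at 76.6 CPM (54.0 to 105.6).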
